A study of Mus musculus with 9 samples.

Results

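Transcript levels of 9 receptor genes for succinate, nucleotides and related metabolites were followed in sorted mouse spleen dendritic cells (DCs) with and without the transcription factor C/EBPβ. The set holds the succinate receptor gene Sucnr1, the P2Y-family genes P2ry12, P2ry13, P2ry14, Gpr171 and P2ry10, the metabolite receptor gene Hcar2, and the adenosine receptor genes Adora2a and Adora2b. Members are the probes annotated with exactly 1 of these symbols, and the set was chosen by measured values, namely the difference between knockout and control that is described here. Of the 9 genes, 7 had such a probe, 8 probes in all because Gpr171 has 2, out of 22180 genes tested. Adora2a and Adora2b are not analysed here.

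The study measured RNA from splenic DCs of naive mice on 1 array per sample to ask what C/EBPβ does in DC maturation without infection. All 9 samples carry the strain label C57BL/6. The 6 controls are labelled C/EBPbeta+/+, and the labels name C57BL/6 and CD11c.Cre mice without saying which control came from which. The 3 knockouts are labelled C/EBPbeta-/- and came from CD11c.Cre mice crossed to a C/EBPβ flox/flox line, so the gene is removed in cells that use the CD11c promoter and in cells that descend from them. No age is given, and nothing says whether a sample came from 1 animal or from pooled spleens, so a p-value covers the variation among the arrays at hand, part of which may be technical. In RNA of a whole sorted population, fewer cells of a type and less RNA per cell cannot be told apart.

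These receptors sit in the cell membrane and pass signals through G proteins. Succinate, a metabolite of the mitochondrial citric acid cycle, is sensed outside cells by SUCNR1. Nucleotides released by stressed or dying cells act on P2Y receptors, and adenosine formed from them acts on adenosine receptors, so the group reports on tissue damage and metabolic state to immune cells. Several of the P2Y-family genes lie beside each other in the genome, near Sucnr1.

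Values are log2 intensities from the authors' deposited table, so a difference of 1 is a doubling. The deleted gene, Cebpb, was at 5.37, 5.60 and 5.42 in knockout replicates 1 to 3 and averaged 6.81 ± 0.19 (SD, n = 6) in the controls, a difference of -1.35 (SE 0.11, limma's adjusted p = 0.00074). Across arrays the medians ran from 5.49 to 5.56, and any 2 arrays correlated across probes at 0.987 to 0.996. The DC genes Itgax, which encodes CD11c, and H2-Ab1, an MHC class II chain, lay at 12.04 to 12.25 and 13.65 to 13.75 over all samples, and Flt3 and Zbtb46, further genes of the lineage, at 11.39 to 11.61 and 9.09 to 9.38. Knockout replicate 3 stood apart in its B cell markers, whose mean over 8 measured genes was 1.02 above the control mean there, against 0.25 and -0.14 in knockout replicates 1 and 2; 0 of the 8 passed the test. The mean of 10 red pulp macrophage markers was 0.26, 0.76 and 0.73 above the control mean in knockout replicates 1 to 3, and ran from -0.56 to 0.55 over the controls. In 3 lists the mean of every knockout was above that of every control. Non-classical monocyte markers were at 0.25, 0.16 and 0.29 (highest control 0.10, with 2 of 8 genes past the threshold, both higher). In this list Ace and Fabp4 differed by 1.16 and 0.47, and for all its other genes, Nr4a1 and Treml4 among them, the groups overlapped. Plasma cell markers were at 0.35, 0.45 and 0.65 (highest control 0.22, with 1 of 6 past it, higher). Here Jchain differed by 1.89, and for all other genes of the list the groups overlapped. Erythroid cell markers, of which only 3 were measured, were at 0.13, 0.14 and 0.31 (highest control 0.047, with 0 past it). In each of these 3 genes the groups overlapped. The part of these lists in the receptor values was not tested.

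Loss of C/EBPβ went with a lower level of Sucnr1, while the other 6 measured receptors had small positive differences with overlapping groups. Of all genes tested, 45.0% had a positive difference. Sucnr1 alone of the 7 measured members passed an adjusted p of 0.05 in limma's fit over all genes, where 0.906% of genes passed, 0.491% lower and 0.415% higher in the knockout. It was also the only measured member in which all 3 knockouts were on one side of all 6 controls. Such separation was seen in 7.39% of the genes tested, 4.88% lower and 2.52% higher. Since this comparison chose the members, these counts are a description and nothing is read from them. The median difference of the 7 members was 0.21, beside -0.014 for all genes tested.

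**Figure D1:**
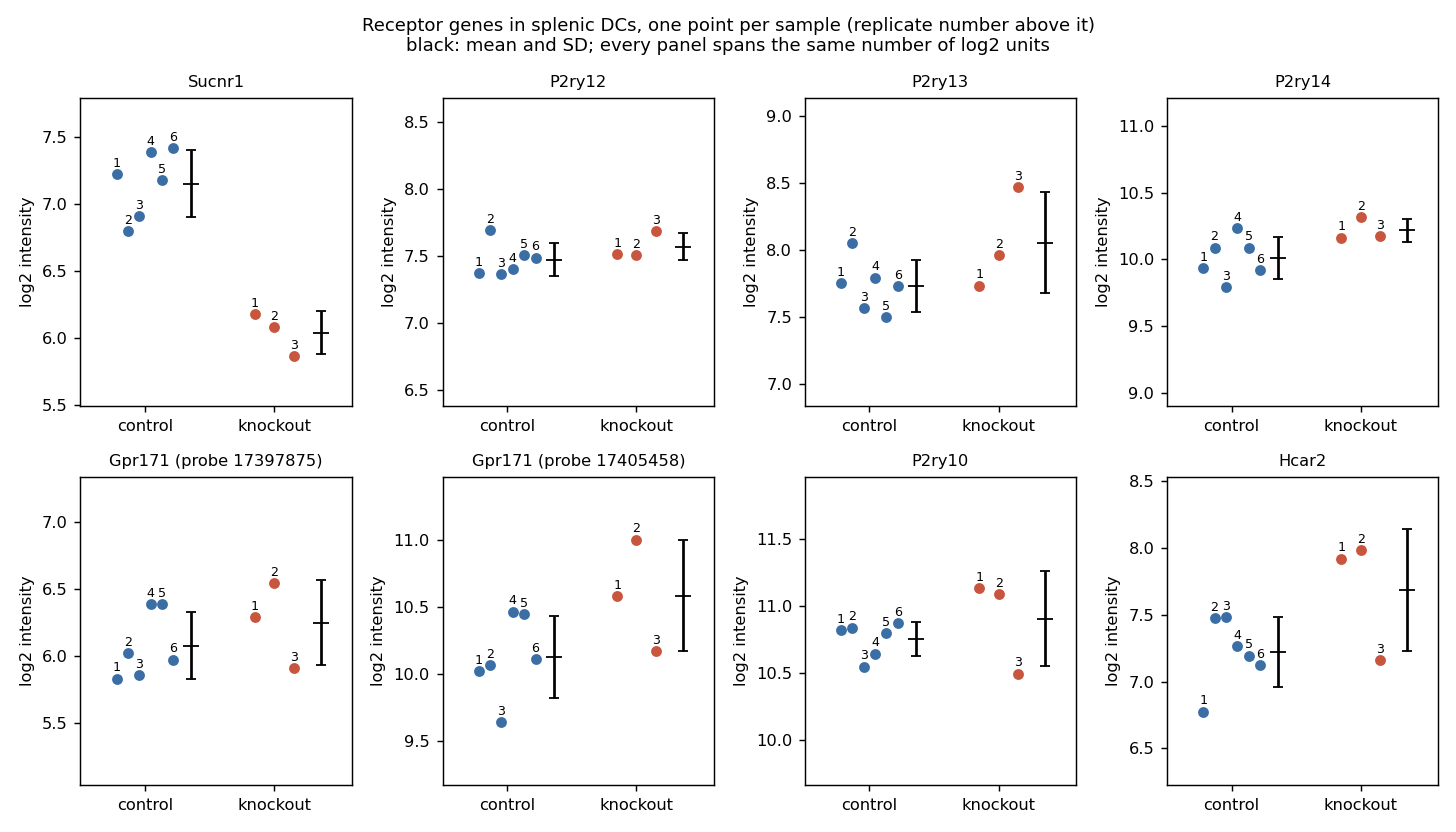
Each panel plots the log2 intensity of 1 probe (vertical axis) in the 6 control (blue) and 3 knockout (red) samples, with the replicate number above each point and the mean and SD in black; all panels span the same number of log2 units. For Sucnr1 the knockouts lie between 5.87 and 6.18, below the lowest control at 6.80, and in the other panels the groups overlap.

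Sucnr1 encodes the receptor for extracellular succinate, which in DCs has been described to act on migration and on cytokine release together with Toll-like receptor signals. Its log2 intensity was 7.23, 6.80, 6.91, 7.39, 7.18 and 7.42 in control replicates 1 to 6. In knockout replicates 1 to 3 it was 6.18, 6.08 and 5.87. Every knockout lay below every control, with a gap of 0.62 between the highest knockout and the lowest control. The controls averaged 7.15 ± 0.25 (SD, n = 6) and the knockouts 6.04 ± 0.16 (SD, n = 3), a log2 difference of -1.11 (SE 0.14), or 2.16-fold lower. The spread among the knockouts (0.31 from lowest to highest) was smaller than that among the controls (0.62). How much of the knockout intensity is background was not measured.

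Sucnr1 was read by 1 probe (17397932). Leaving out any 1 of the 9 samples gave differences from -1.18 to -1.03. Among the controls, replicate 2 had the highest red pulp macrophage signal (0.55) and the lowest Sucnr1 (6.80), and replicate 3 had the lowest such signal (-0.56) and the next lowest Sucnr1 (6.91). That signal was also above the control mean in all 3 knockouts, and its part in the Sucnr1 values was not tested.

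The promoter windows of Sucnr1, P2ry12 and P2ry10 are shown because the regulator removed here binds DNA, and these 3 genes differ in which motifs their windows hold. Windows run from 250 bases before to 50 bases after the annotated start, 5′ to 3′ on the gene's strand, from RefSeq (GRCm38.p6), which held 10 windows of 6 members. Capitals mark matches on either strand to a C/EBP motif (TTGCNNAA, or TTNNGCAA on the other strand), an AP-1 motif (TGANTCA, the same on both strands) or a PU.1 core (GAGGAA, or TTCCTC on the other strand). No 2 matches overlap in the windows printed.
Sucnr1, chr3:60081619-60081918, plus strand: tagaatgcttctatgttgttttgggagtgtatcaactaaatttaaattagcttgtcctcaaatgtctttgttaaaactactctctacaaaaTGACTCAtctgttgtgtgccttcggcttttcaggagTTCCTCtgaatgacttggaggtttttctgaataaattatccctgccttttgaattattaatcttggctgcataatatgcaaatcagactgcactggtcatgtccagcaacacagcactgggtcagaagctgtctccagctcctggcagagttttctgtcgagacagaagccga
P2ry12, chr3:59262936-59263235, minus strand: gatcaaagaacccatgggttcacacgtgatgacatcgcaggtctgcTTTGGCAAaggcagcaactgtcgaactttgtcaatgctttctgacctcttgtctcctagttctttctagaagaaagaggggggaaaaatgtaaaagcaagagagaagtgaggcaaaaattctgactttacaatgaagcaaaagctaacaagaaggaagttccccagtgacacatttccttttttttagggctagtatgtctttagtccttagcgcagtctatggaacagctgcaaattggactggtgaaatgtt
P2ry10, chrX:107088242-107088541, plus strand: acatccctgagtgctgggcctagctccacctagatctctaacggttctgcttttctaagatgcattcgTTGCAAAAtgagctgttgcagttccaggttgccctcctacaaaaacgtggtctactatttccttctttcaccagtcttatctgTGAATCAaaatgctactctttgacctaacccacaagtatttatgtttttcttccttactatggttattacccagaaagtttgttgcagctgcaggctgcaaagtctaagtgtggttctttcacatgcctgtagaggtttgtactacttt

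The Sucnr1 window held an AP-1 match at bases 92 to 98 and a PU.1 core at bases 128 to 133, and no match to the C/EBP letters. Among 32851 windows of the same length, 10.8% held the C/EBP motif, 7.81% the AP-1 motif and 28.3% the PU.1 core. The P2ry12 window held 1 C/EBP match, at bases 47 to 54. The first P2ry10 window held a C/EBP match at bases 69 to 76 and an AP-1 match at bases 152 to 158. Of the 4 windows of P2ry14, 1 held C/EBP matches, 2 in number, and each held a PU.1 core. Like the Sucnr1 window, those at chr3:59153443-59153742 and chr3:59131279-59131578 held an AP-1 match, a PU.1 core and no C/EBP match. A PU.1 core was also in the P2ry13 window and in the second P2ry10 window. A match is a run of letters and no evidence of binding.

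P2ry12 and P2ry13 encode receptors for ADP that couple to inhibitory G proteins. P2ry12 is known from platelets, where it is the target of clopidogrel, and from microglia. Its control values ran from 7.37 to 7.69 with a median of 7.45. In knockout replicates 1 to 3 it was 7.51, 7.51 and 7.69, all within the control range. The groups overlapped throughout, with a difference of 0.098 (SE 0.082) that was 0.040 without knockout replicate 3 and 0.062 with array weights. The mean of 7 platelet and megakaryocyte markers, Pf4 and Itga2b among them, lay between 5.36 and 5.52 in the controls and between 5.42 and 5.55 in the knockouts, and none of them passed the test. Clec1b of this list was at 6.64, 7.38 and 7.22 in the knockouts, above the highest control at 6.55. For the rest of the list the groups overlapped. The part of these markers in the P2ry12 values was not tested.

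P2ry13 varied most between knockouts after Gpr171 and Hcar2. It ran from 7.50 to 8.05 in the controls, with a median of 7.74. In knockout replicates 1 to 3 it was 7.73, 7.96 and 8.47. Only knockout replicate 3 lay above all controls, and replicate 1 sat at the control mean. The difference of 0.32 (SE 0.16) became 0.11 without knockout replicate 3 and 0.48 without knockout replicate 1. The highest control for P2ry13 and for P2ry12 was replicate 2, which also had the highest red pulp macrophage signal among the controls (0.55). That marker list was at 0.76 and 0.73 in knockout replicates 2 and 3, its mean level ran from 8.22 to 9.33 in the controls and from 9.04 to 9.54 in the knockouts, and 0 of its 10 measured members passed the test. Its part in the P2ry13 values was not tested.

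P2ry14 encodes the receptor for UDP-glucose and related UDP sugars. Its values ran from 9.80 to 10.23 in the controls, with a median of 10.01. The knockouts were at 10.16, 10.31 and 10.17 in replicates 1 to 3. They clustered at the upper end of the control range, with replicate 2 alone above it, and spanned 0.15 against 0.44 in the controls. The difference was 0.21 (SE 0.092), from 0.16 to 0.25 when single samples were left out.

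Gpr171 encodes a P2Y-like receptor that has been described to bind the neuropeptide BigLEN. By its brighter probe (17405458) the controls ran from 9.64 to 10.47, with a median of 10.09. Knockout replicates 1 to 3 were at 10.58, 11.00 and 10.17. Replicates 1 and 2 lay above all controls and replicate 3 near their mean. The difference was 0.46 (SE 0.20), and it was 0.25 without knockout replicate 2 and 0.67 without knockout replicate 3. The second probe (17397875) ran from 5.83 to 6.39 in the controls and was at 6.29, 6.54 and 5.91 in the knockouts, a difference of 0.17 (SE 0.16). It gave the same order of the knockouts, with replicate 2 highest and replicate 3 lowest. Over the 6 controls the 2 probes correlated with Pearson's r = 0.89 (exact permutation p = 0.018, two-sided) and Spearman's rho = 0.89 (exact permutation p = 0.033), and r was 0.56 without the 2 samples farthest from the median.

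P2ry10 encodes a P2Y-family receptor described to respond to lysophosphatidylserine and abundant in lymphocytes, and its gene lies on the X chromosome. Control values ran from 10.55 to 10.87, with a median of 10.81. Knockout replicates 1 to 3 were at 11.13, 11.09 and 10.49. Replicates 1 and 2 thus lay above all controls and replicate 3 below all of them. The difference was 0.15 (SE 0.13). It became 0.36 when knockout replicate 3 was left out, 0.039 when replicate 1 was and 0.060 when replicate 2 was. With array weights it was 0.27. B cell signal and P2ry10 had no single order among the knockouts. Knockout replicate 3 had the lowest P2ry10 and the highest B cell list mean, 1.02 relative to the controls' average. The B cell gene Cd79a reached 10.2 there, against 7.29 to 8.24 in the controls. Knockout replicate 1, with the highest P2ry10, also exceeded every control in Cd79a (8.67) and in the list mean (0.25, highest control 0.14). The list was split in that sample. Blk (8.08) and Ebf1 (6.36) were also above every control there, and Cd22 (9.90) was below every control (10.02 to 10.41). Cd79b, Ms4a1, Pax5 and Fcmr lay within their control ranges. Knockout replicate 2, with P2ry10 at 11.09, had Cd79a at 7.74 and the list at -0.14. The part of B cells in the P2ry10 values was not tested.

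Hcar2 encodes the receptor for nicotinic acid and the ketone body beta-hydroxybutyrate, known from adipocytes and from macrophages and neutrophils. Its control values ran from 6.78 to 7.48, with a median of 7.23. Knockout replicates 1 to 3 were at 7.92, 7.98 and 7.16. Replicates 1 and 2 lay above all controls and replicate 3 just under the control mean of 7.22. The difference was 0.47 (SE 0.19), and it was 0.73 without knockout replicate 3 and 0.32 without knockout replicate 2. The mean of 9 neutrophil markers lay between 4.70 and 4.81 in the controls and between 4.79 and 4.87 in the knockouts. It was highest in knockout replicate 2, and 0 of the 9 passed the test. All these means were below the array medians (5.49 to 5.56), so the signal was dim. The red pulp macrophage list was at 0.26, 0.76 and 0.73 in knockout replicates 1 to 3, relative to the control mean. The part of either list in the Hcar2 values was not tested.

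Gpr171, P2ry10 and Hcar2 shared 1 pattern, with knockout replicates 1 and 2 above all 6 controls and knockout replicate 3 not. This held for 3 of the 7 members and for 3.62% of all genes tested, in a count defined after the values were seen. Knockout replicate 3 stood above the other knockouts in its B cell markers (1.02, against 0.25 and -0.14) and plasmacytoid DC markers (0.57, against 0.045 and 0.19), and it also had the lowest weight among the 9 arrays, 0.47, when arrays were weighted by their fit. The mean of 8 markers of cDC2, a conventional DC subset, was at 0.29, 0.073 and -0.12 in knockout replicates 1 to 3, and 2 of the 8 passed the test, both higher. Its genes did not move one way: Mgl2 and Cd209a, which encode lectins, differed by 0.90 and 0.54, and Sirpa and Clec4a4 by -0.12 and -0.30. The part of any of these in the pattern was not tested.

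**Figure D2:**
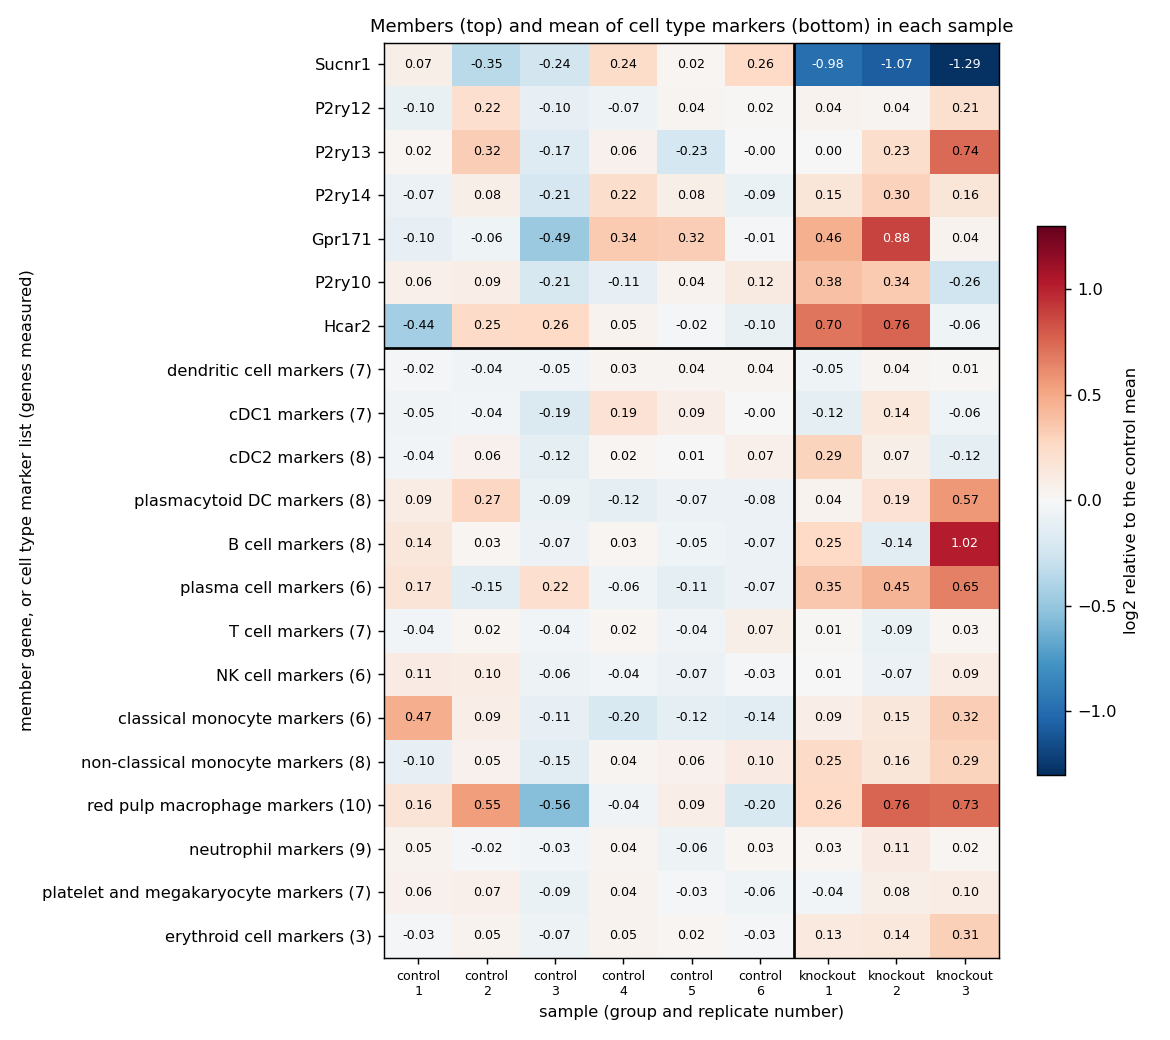
Rows are the 7 measured members (top) and the mean of each cell type marker list (bottom, number of genes measured in brackets), columns are the 9 samples, and colours and figures give log2 intensity relative to the control mean. Sucnr1 is at -0.98, -1.07 and -1.29 in the knockouts, while the B cell list reaches 1.02 in knockout replicate 3 and the red pulp macrophage list 0.55 in control replicate 2.

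Whether the receptors vary together was examined in the controls alone. Of the 21 pairs of measured members, the strongest relation over the 6 controls was between P2ry14 and Gpr171, with r = 0.88 (exact permutation p = 0.033, adjusted p = 0.70) and rho = 0.78 (exact permutation p = 0.078, adjusted p = 0.98). Without the 2 samples farthest from the P2ry14 median, r was 0.55. No pair passed after adjustment over the 21 pairs. Among the pairs with Sucnr1, r was largest in size with Hcar2 (-0.61) and Gpr171 (0.56). Without the 2 samples farthest from the Sucnr1 median, these became 0.39 and -0.050. Sucnr1 and P2ry14 had r = 0.26, and Sucnr1 and P2ry12 had r = -0.46.

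The genes around Sucnr1 on its chromosome had small differences, none past the threshold. In the RefSeq gene order of GRCm38.p6, which was used for order only, the coding genes of this stretch of chromosome 3 include, in order, Med12l, Gpr171, P2ry14, P2ry13, P2ry12 and Igsf10, then a group of arylacetamide deacetylase-like genes, then Aadac, Sucnr1, Mbnl1 and P2ry1. There are 8 coding genes between P2ry12 and Sucnr1. Of 17 coding genes from Med12l to P2ry1, 14 were measured, among them 5 members. The 9 measured genes that are not members differed by -0.068 to 0.27 with a median of 0.069, and 0 passed limma's adjusted p of 0.05 (1 had an unadjusted p under 0.05). Aadac, next to Sucnr1 on one side, differed by 0.069 (SE 0.071), and Mbnl1, a splicing regulator that is the nearest measured gene on the other side, by -0.068 (SE 0.053).

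Gpr171, P2ry14, P2ry13 and P2ry12 lie inside the span of Med12l, which encodes a Mediator subunit and differed by 0.17 (SE 0.087). The P2ry genes there are annotated on the minus strand and Med12l on the plus strand. Among the 10 genes on each side of Sucnr1 in the gene order, pseudogenes and noncoding genes included, 8 were measured and 0 passed (limma, smallest adjusted p = 0.35).

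**Figure D3:**
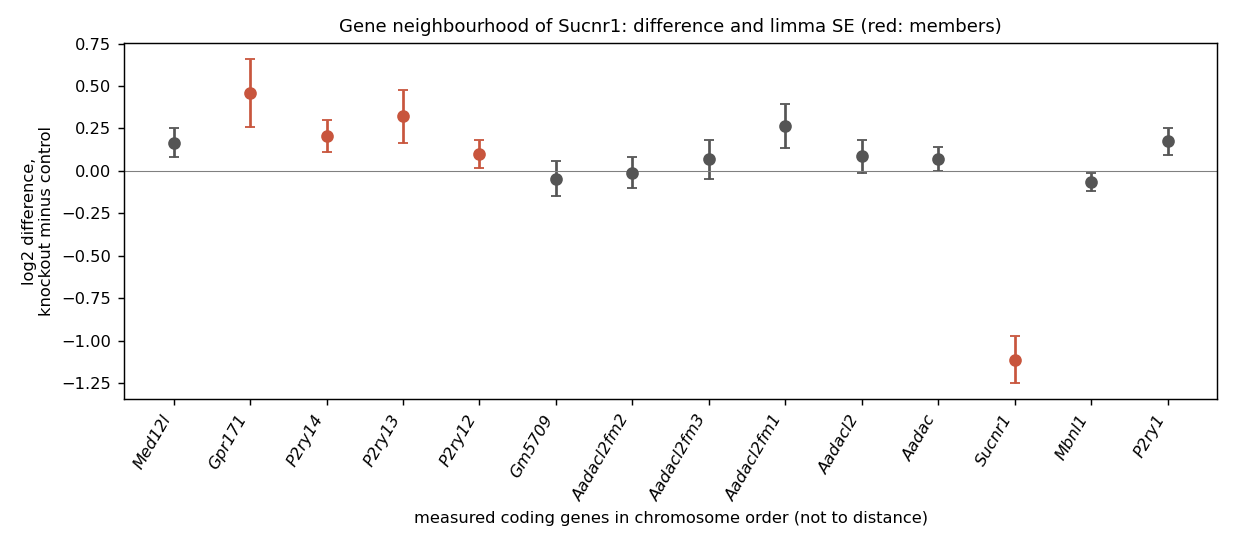
Points give the log2 difference, knockout minus control, with limma's SE (vertical axis) for the 14 measured coding genes from Med12l to P2ry1 in chromosome order (horizontal axis, not to distance), members in red. Sucnr1 is at -1.11, and the non-members lie between -0.068 and 0.27.

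The other receptors and enzymes of these pathways had no gene past the threshold. Lists were set by role, not by change, and with earlier results of these data known. Over 6 lists and the neighbours of Sucnr1, 121 genes were measured and 0 passed limma's adjusted p of 0.05, while 19 of them (15.7%) had an unadjusted p under 0.05, beside 14.3% of all genes tested. All 3 knockouts lay above all controls in 2 of the 121 (1.65%, beside 2.52% of all genes) and below them in 5 (4.13%, beside 4.88%).

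Of 12 other P2Y and P2Y-like receptors, 10 were measured, with differences from -0.30 to 0.26 and a median of -0.044. Gpr34, a lysophosphatidylserine receptor, differed by -0.30 (SE 0.11, limma's adjusted p = 0.26) and Gpr174, of the same ligand class, by 0.25 (SE 0.098, adjusted p = 0.28). P2ry6, the UDP receptor, was at 10.58 ± 0.12 (SD, n = 6) in the controls and 10.59 ± 0.074 (SD, n = 3) in the knockouts. All 7 ATP-gated P2X channels were measured, and P2rx4 was the channel with the smallest p. It averaged 10.14 ± 0.10 (SD, n = 6) in controls and was at 10.42, 10.37 and 10.43 in the knockouts, all above the highest control at 10.23, a difference of 0.27 (SE 0.068, limma's adjusted p = 0.097). It passed in a fit of genes above the median signal alone (adjusted p = 0.047). P2rx7, the channel that drives inflammasome activation by ATP, differed by 0.047 (SE 0.10, adjusted p = 0.89).

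Of 16 other metabolite, proton and adenosine receptors, 14 were measured and 0 passed. Ffar2, a receptor for short-chain fatty acids, lay lower in every knockout (8.74, 8.71 and 8.56) than in any control (8.83 to 9.32), with a difference of -0.39 (SE 0.11, limma's adjusted p = 0.13). Adora3, the A3 adenosine receptor, differed by 0.17 (SE 0.069, adjusted p = 0.28). The proton-sensing receptor Gpr65 was at 11.61 ± 0.13 (SD, n = 6) and 11.77 ± 0.13 (SD, n = 3), and the related Gpr132 differed by 0.23 (SE 0.091, adjusted p = 0.28).

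The supply side showed no called change either. Of 32 genes for nucleotide and adenosine turnover and transport, 26 were measured, with a median of -0.031. Entpd1, the ectonucleotidase CD39, differed by 0.071 (SE 0.087, limma's adjusted p = 0.78), and Nt5e, the ecto-5′-nucleotidase CD73 that forms adenosine, by 0.33 (SE 0.15, adjusted p = 0.37); these 2 were picked after their values were seen. The AMP deaminase Ampd2 differed by -0.24 (SE 0.074, adjusted p = 0.16) and the alkaline phosphatase Alpl by -0.28 (SE 0.11, adjusted p = 0.30).

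Of 24 genes for succinate formation, use and transport, 23 were measured, with a median of -0.035. Suclg1 and Suclg2, subunits of the succinyl-CoA ligase that forms succinate, differed by -0.29 (SE 0.087, limma's adjusted p = 0.16) and -0.24 (SE 0.085, adjusted p = 0.23). Sdha, a subunit of the succinate dehydrogenase that consumes it, differed by -0.14 (SE 0.077, adjusted p = 0.46). Sdhb, another subunit, was lower in every knockout than in any control, by -0.13 (SE 0.061, adjusted p = 0.38), and was picked after its values were seen.

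Of 37 G protein and cyclic AMP signalling genes, 34 were measured, with a median of -0.025 and 0 past the threshold. Gna13, a G protein alpha subunit, came nearest. It ran from 9.63 to 9.86 in the controls and was at 10.18, 10.18 and 9.95 in the knockouts, a difference of 0.35 (SE 0.080, limma's adjusted p = 0.073). It passed with array weights (adjusted p = 0.022) and among genes above the median signal (adjusted p = 0.034). Rgs19, a brake on inhibitory G proteins, differed by -0.23 (SE 0.067, adjusted p = 0.15), and its knockouts also lay below all controls.

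**Figure D4:**
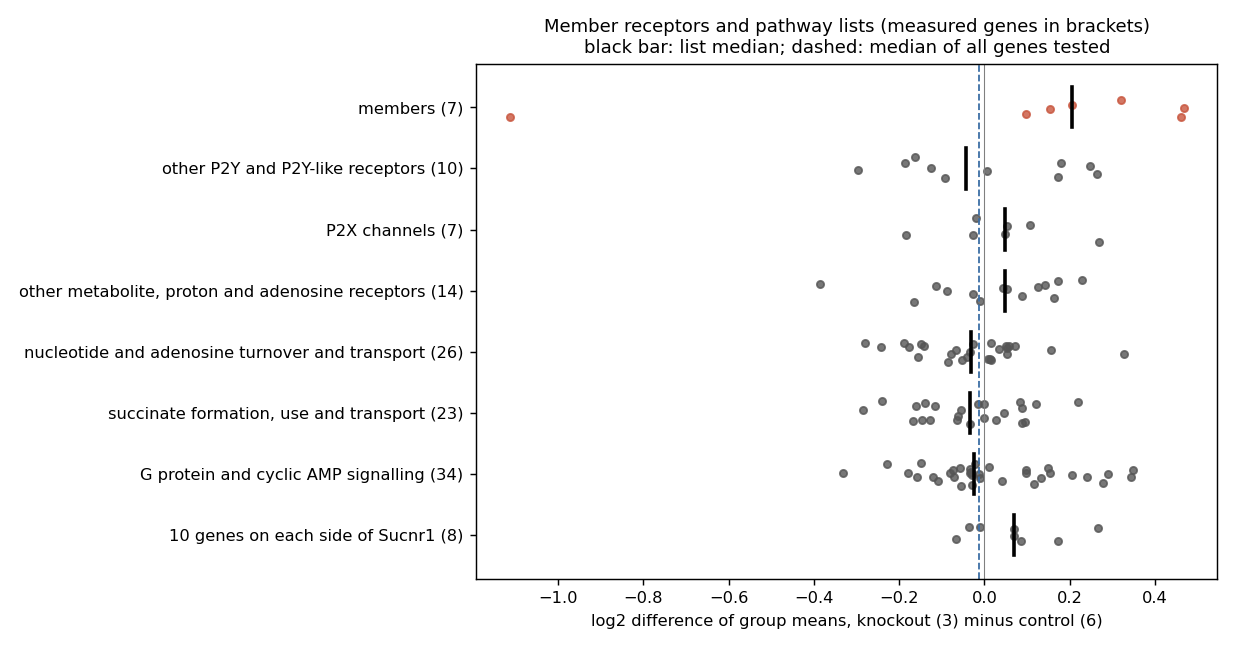
Each point is the log2 difference of group means, knockout minus control (horizontal axis), of 1 measured gene, by list (vertical axis), with the list median as a black bar and the median of all genes as a dashed line. Sucnr1, at -1.11, stands apart from every other point, all of which lie between -0.39 and 0.47.

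The 6 genes whose values were nearest to those of Sucnr1 over the 9 samples were Serpinb2, Cyp4f37, H2bc12, Timeless, Tcf19 and Mastl. Nearness was the root mean square of the difference between 2 genes, each taken relative to its own control mean, and since Sucnr1 was chosen for its pattern this is a description. Serpinb2, an inhibitor of plasminogen activators made by myeloid cells, was nearest at 0.16, beside a median of 0.68 over all genes. A gene that stayed at its control mean in every sample would be at 0.67, so that median mostly reflects the size of the Sucnr1 difference. Among the controls, which were part of that measure, Serpinb2 was highest in replicates 6 and 4 (8.35 and 8.10) and lowest in replicates 2 and 3 (7.56 in both). Its knockout values were 7.21, 6.93 and 6.90, a difference of -0.89 (SE 0.17).

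Cyp4f37, a cytochrome P450 of the fatty acid hydroxylase family, came next at 0.22. It ran from 9.03 to 9.91 in the controls and was at 8.78, 8.50 and 7.90 in the knockouts. The other 4 lay at 0.25 to 0.27. H2bc12 is a histone gene, Timeless acts at replication forks, Tcf19 is expressed around the start of S phase, and Mastl is a kinase of mitotic entry. In all 6 genes, as in Sucnr1, knockout replicate 3 had the lowest value and replicate 1 the highest of the 3 knockouts. The knockouts were part of the measure that picked these genes, so a like order is favoured by the choice and nothing is read from it.

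**Figure D5:**
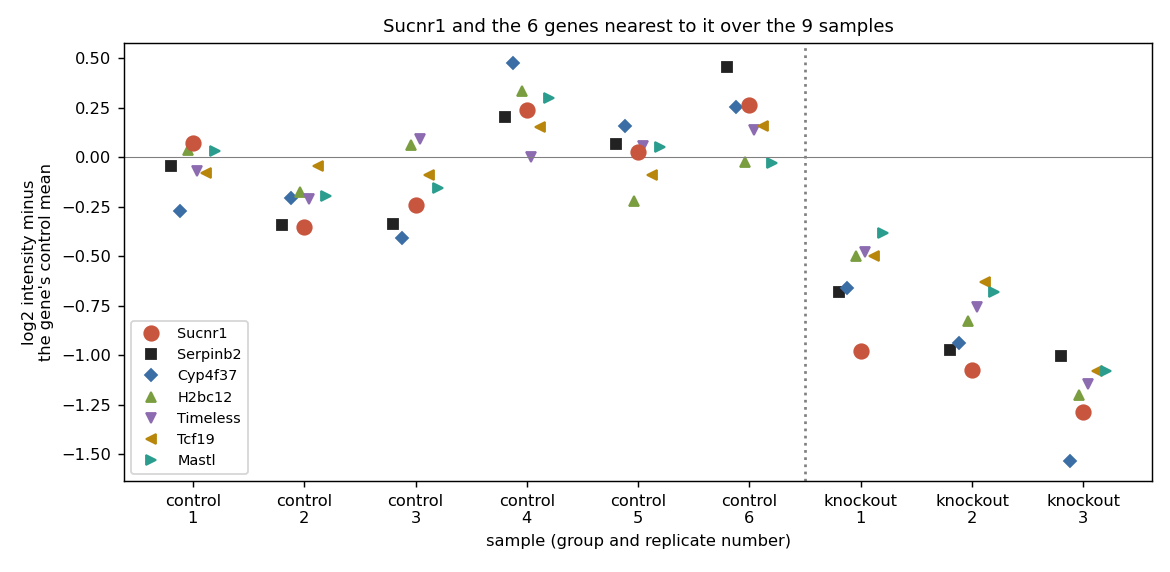
Points give log2 intensity minus the gene's own control mean (vertical axis) for Sucnr1 (large red circles) and the 6 genes nearest to it, in each of the 9 samples (horizontal axis); the dotted line divides controls from knockouts. In each of the 7 genes knockout replicate 3 is the lowest of the knockouts, with Sucnr1 at -0.98, -1.07 and -1.29. The 6 genes were picked for their nearness over these same samples.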

How the data were processed

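RNA of 9 sorted DC samples was measured on single-channel arrays. The authors deposited 1 log2 intensity for each probe and sample, made with RMA (background correction, quantile normalization, summary) per the submitters' processing notes; the sources used here do not give its version, its settings or a genome build. Quantile normalization removes shifts shared by most genes, and RMA compresses dim probes. Of 41801 rows, 34468 had a value in all samples. Gene names came from the platform annotation, where 23521 of these probes had 1 symbol, 1814 several and 9133 none. A gene was represented by its probe with the highest mean, which gave 22180 genes, with no filter on signal.

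The 3 knockouts were set against the 6 controls in limma 3.58.1 under R 4.3.3 (lmFit and eBayes, two-sided, no covariate), with Benjamini-Hochberg adjustment over all genes and a threshold of 0.05. Tables were made in Python 3.11.15. The members, lists and rule for named genes were chosen with earlier results of these data known. The rule named all members, Cebpb, per list up to 4 genes past 0.05 or else the 2 with the smallest p, and the 2 with the highest mean, the 6 genes nearest to Sucnr1, and the first 2 markers of each cell type list. Of the markers the text gives only those a result turned on, and it leaves out some of the list genes so named. Some genes outside the rule were added, among them Entpd1, Nt5e and Sdhb, picked after their values were seen. The fit was tested on simulated data of 22180 genes and recovered 55.2% of genes changed by 0.50, 92.5% changed by 1 and 100% changed by 2 (log2).

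Alternatives were 2 other scalings, eBayes with a trend and robust fitting, weights for arrays (with statmod 1.5.0), each sample left out, blocks by replicate number, a signal filter, 2 other rules for probes and a minimum change. The number of arrays limits the precision.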

Additional observations from a re-analysis of the deposited data

How the results depend on the processing

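The difference of Sucnr1 stayed negative under all 18 alternatives run, from -1.18 to -0.94, and those of the other 6 measured members stayed positive in all that were run for them (17 for Gpr171, 18 for the rest). Sucnr1 was the 1 member past the threshold in each of the 9 fits that left out a sample. Since the same comparison chose the members, these refits describe how the values depend on single samples and are no separate support. With the replicate number as a block, 0 members and 2 genes passed, and the difference of Sucnr1 was -0.94. That fit rests on 3 pairs, and same-numbered samples did not deviate together (correlations of -0.14, -0.10 and 0.047), so the numbers were not taken as pairs. Over all genes, 201 passed the threshold, against 125 with arrays centred on their medians, 652 with array weights, 537 among genes above the median signal and 83 with a minimum change of 1.5-fold, and ran from 33 (without knockout replicate 2) to 332 (without knockout replicate 1) when 1 sample was left out. It was 66, 147, 73, 49, 64 and 60 without control replicates 1, 2, 3, 4, 5 and 6, and 182 without knockout replicate 3. The number of genes with groups that do not overlap, 1640, ran from 1761 to 3240 in the same fits, where fewer samples make overlap rarer. Of the pathway genes, 1 passed with array weights (Gna13, limma's adjusted p = 0.022) and 2 above the median signal (Gna13, adjusted p = 0.034, and P2rx4, adjusted p = 0.047); 0 passed when any sample was left out. Leaving out a knockout moved the differences of P2ry12, P2ry13, Gpr171, P2ry10 and Hcar2 by over 1.5 times, and array weights moved those of P2ry12 (to 0.062) and P2ry10 (to 0.27). Few arrays and unmeasured background limit small differences of dim probes.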
